A study of Chenopodium quinoa with 24 samples.

Results

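Serine/arginine-rich (SR) splicing factors and the glycine-rich RNA-binding protein RBG7 were followed in quinoa leaves heated at the roots, at the shoots or at both. The members were all quinoa transcripts of the deposited table whose best Arabidopsis match is one of 22 loci that encode SR proteins, SR-like proteins, RBG7 (AT2G21660, also called GRP7) or RBG8. The rule found 39 of the 44776 transcripts, matched to 15 of these loci, and 12 loci had more than 1 quinoa transcript. The table listed no best match to RBG8, RS31a, RS41, RSZ21, RSZ22a, SCL33 or SCL28, and nothing was measured here for these loci. The rule uses the annotation alone, but the gene family was picked with results of these data known, so the shares given for it are descriptions, to be read beside the share of all transcripts.

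The leaves came from 24 plants of the quinoa accession QQ74, 3 in each of 8 groups, grown from seeds of first-generation heterozygous parents. The control treatment held the whole plant at 22°C. Heated roots (HR) meant 30°C below ground while the shoot stayed at 22°C, heated shoots (HS) meant 35°C above ground while the root stayed at 22°C, and in HRS the root was kept at 30°C with the shoot at 35°C. Heating began when the first flowers of the main panicle opened, and leaves were taken early in the light period on day 1 or day 11. The treatments with unheated shoots shared a growth chamber and those with heated shoots shared another, so chamber and shoot heating cannot be told apart. The wooden box that enclosed the pots differed with the treatment as well. Every group was compared with control plants of its own day, and HS and HRS therefore share their control plants.

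SR proteins bind pre-mRNA through an RNA recognition motif and use a domain rich in serine and arginine to bring the U1 particle and the U2AF dimer to splice sites. They act early in spliceosome assembly and help to choose between alternative splice sites, and in Arabidopsis their own pre-mRNAs are alternatively spliced, in part in response to temperature. RBG7 belongs to another family, with an RNA recognition motif followed by a glycine-rich tail. In Arabidopsis its transcript cycles with the circadian clock, and the protein binds its own pre-mRNA and steers it into a splice form that is degraded. The quinoa table gives a single transcript model per gene, so splice forms were not resolved, and how reads were divided between near-identical copies is not known.

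The deposited values are effects on the natural log scale, given here as log2 differences, and variances between plants. No values of single plants are in the table, so levels are group means and overlap between plants cannot be read. A level is the geometric mean of the estimated counts after sleuth's scaling within a day, and it is not corrected for length. A higher count of one transcript than of another is therefore not a higher level per length, and levels were not compared between days. Differences were tested with limma's moderated test on the effect and the residual variance of each fit, with 3 plants per group, and a transcript was called at an adjusted p under 0.05 (Benjamini-Hochberg over all transcripts of that comparison). Depth per plant is not part of the table, and the standard error carries its effect on precision. The authors list reads by plant separately. There, every HS plant of day 11 had a smaller share of uniquely mapped reads than any control plant of that day. The part of this mapping difference in the values was not tested. Leaf marker transcripts (RBCS1A, RCA, LHCB2 and LHCB3) were all tested, with control levels from 913 to 142019 on day 1 and from 6927 to 343459 on day 11. Of 11 transcripts of flower regulators, 5 were tested on day 1 and 3 on day 11, with control levels of no more than 36.6 and 27.0.

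Of the 39 members, 21 were called in at least 1 of the 6 comparisons with control and 18 in none, where 31.2% of the 32279 transcripts tested in any of them were called at least once. On day 1, 17 of 39 were called in HS, 8 higher and 9 lower than control, while 22.1% of all 30579 transcripts tested were called (12.1% higher and 10% lower). In HRS on the same day 16 of 39 were called, 9 higher and 7 lower, against 22.7% of all transcripts (12.2% higher and 10.5% lower). On day 11, 6 of 39 were called in HS, all of them higher, against 4.95% of all transcripts in either direction and 2.09% higher. In HRS it was 1 of 38, also higher, against 5.55% in either direction and 2.78% higher. Root heating alone gave 0 calls among members and 0% among all transcripts on either day by limma, with 2 members on day 1 and 6 on day 11 at an unadjusted p under 0.05. Shares of all transcripts at an unadjusted p are not given here or below, so such counts are descriptions only. A test with the normal distribution called 0 members in HR on day 1 (0.567% of all transcripts) and 3 on day 11 (0.879%). The median log2 difference over members on day 1 was 0.01 for HS against 0.07 for HRS, and on day 11 it was 0.27 for HS against 0.06 for HRS, beside medians over all transcripts of -0.00053, -0.0063, -0.00097 and -0.027. Scaled to total counts, the member medians on day 1 were below zero (-0.24 for HS and -0.13 for HRS) and those on day 11 were 0.62 and 0.04. Total counts here and below are sums of group mean levels over all tested transcripts, not library totals.

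**Figure D1:**
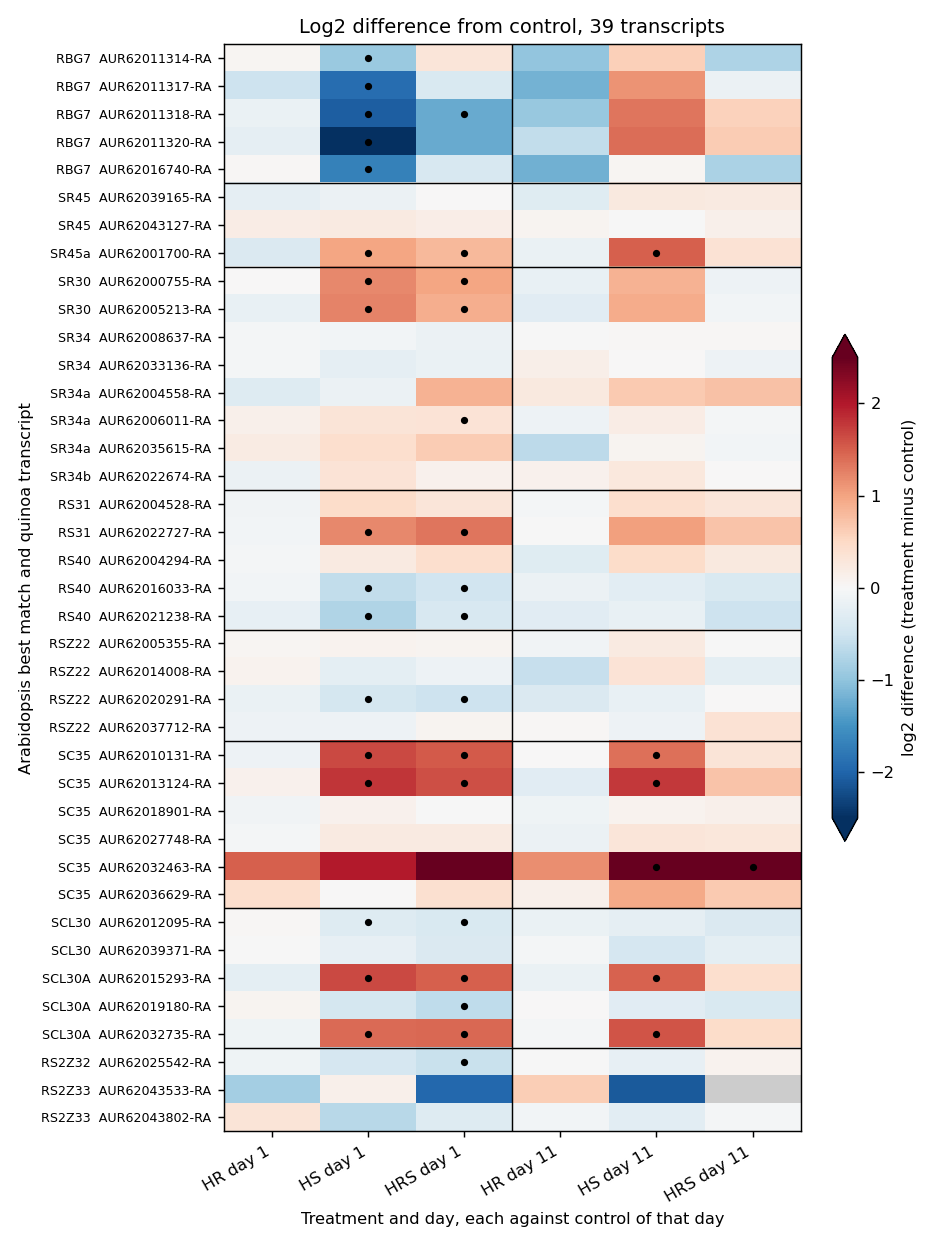
Log2 difference from control (colour, red higher and blue lower, saturated beyond 2.5) of the 39 transcripts (vertical axis, by Arabidopsis match) in the 6 comparisons (horizontal axis), with a black dot where limma's adjusted p was under 0.05 and grey where a transcript was not tested. RBG7 copies were lower in HS on day 1, 8 SR transcripts were higher in HS and HRS on day 1, and dots were fewer on day 11.

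The 5 transcripts matched to RBG7 were lower than control in HS on day 1, every one of them called. The copy with the most counts, AUR62011314-RA, had a mean level of 1885 in control and 1950 in HR, and 985 in HS and 2330 in HRS. HS was the low group for this copy, with 52.3% of the control level (log2 difference -0.94, standard error 0.19, adjusted p = 0.0106), and HRS was not called. AUR62016740-RA had 681 in control and 694 in HR, and 212 in HS and 519 in HRS, which put HS at 31.2% of control (adjusted p = 0.00146). AUR62011317-RA stood at 444 in control and 312 in HR, and 118 in HS and 343 in HRS, with HS at 26.7% of control (adjusted p = 3.1e-04). All of these copies had their lowest level in HS.

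In HRS the remaining RBG7 copies lay further below control than AUR62011317-RA and AUR62016740-RA, whose log2 differences of -0.37 and -0.39 were not called. AUR62011318-RA had a level of 493 in control and 442 in HR, and 119 in HS and 205 in HRS, and it was called lower both in HS, at 24.1% of control (adjusted p = 0.00209), and in HRS, at 41.6% (adjusted p = 0.00927). AUR62011320-RA, the copy with the fewest counts, had 43.7 in control and 37.4 in HR, and 6.33 in HS and 18.2 in HRS. Its log2 difference in HS was -2.79 (standard error 0.71, adjusted p = 0.0262), and the -1.27 in HRS was not called (standard error 0.48, adjusted p = 0.0932). The spread between plants in the HS fit was a log2 SD of 0.20 to 0.45 for the copies with more counts and 1.04 for this one.

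RBG7 calls in HS that were absent in HRS do not by themselves show a difference between HS and HRS, so HRS was compared with HS directly. The table holds no joint fit of HS and HRS, and the largest variance that the separate fits allow was used, which makes this test cautious. On day 1 all RBG7 copies were higher in HRS than in HS, by log2 differences of 1.24 (AUR62011314-RA), 1.54 (AUR62011317-RA), 0.79 (AUR62011318-RA), 1.52 (AUR62011320-RA) and 1.29 (AUR62016740-RA). None passed the adjusted threshold in limma, and 0% of all transcripts did. AUR62011317-RA, AUR62011314-RA and AUR62016740-RA were the 3 members with an unadjusted p under 0.05 in limma (standard errors 0.26, 0.29 and 0.30). AUR62011317-RA was called with a normal distribution (adjusted p = 0.00258, where 0.0534% of all transcripts were called). With equal spread assumed in every group, a setting added after the data were seen, limma also called this copy (adjusted p = 0.0296, 0.0434% of all transcripts). Its interaction of root and shoot heating on day 1, the excess of HRS over the sum of the HR and HS effects, was 2.04 (standard error 0.33), not called by limma and called with the normal distribution (adjusted p = 0.00945, 0.0101% of all transcripts). With limma 0 members were called for the interaction on either day (4 and 4 at an unadjusted p under 0.05, 0% and 0.00337% of all transcripts called).

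**Figure D2:**
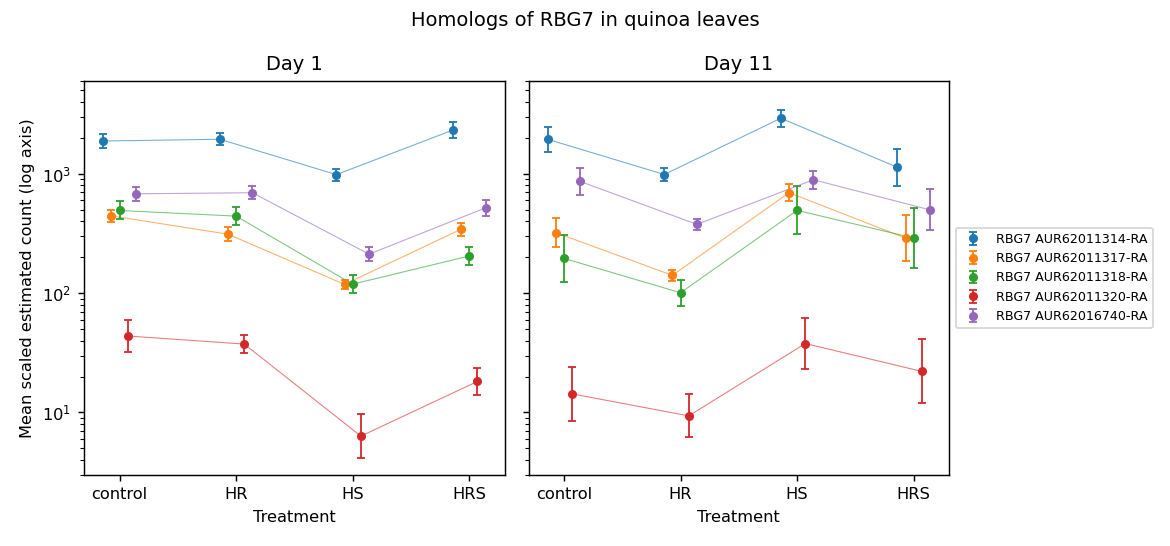
Mean scaled estimated count (log axis) of the 5 RBG7 homologs in control, HR, HS and HRS on day 1 (left) and day 11 (right), with bars of 1 standard error of the group mean of 3 plants, taken from the residual SD of the fit (for control, the root mean square over the fits of that day). On day 1 the points of HS are the lowest of each copy. On day 11 those of HR are the lowest and those of HS the highest of each copy.

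On day 11 the RBG7 copies no longer stood below control in HS. The levels of AUR62011314-RA were 1949 in control and 987 in HR, and 2926 in HS and 1135 in HRS, and those of AUR62011317-RA were 321 in control and 141 in HR, and 696 in HS and 289 in HRS. For both, HS was highest and HR lowest. AUR62011318-RA had 195 in control and 101 in HR, and 494 in HS and 290 in HRS, AUR62011320-RA 14.3, 9.35, 37.8 and 22.1 in the same order, and AUR62016740-RA 863, 377, 893 and 499. The log2 differences of HS from control, 0.05 to 1.40, were not called in any copy by limma, the smallest adjusted p being 0.0612 for AUR62011317-RA (difference 1.12, standard error 0.28). This copy was called higher in HS with the normal distribution (13.6% of all transcripts called) and when scaled to total counts (16.6%). In HRS the log2 differences from control ran from -0.79 to 0.63, with standard errors of 0.53 to 0.97, and none was called.

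With root heating alone, the RBG7 levels on day 11 were below control in all copies, and limma called none of them. The log2 differences of HR from control were -0.98 (AUR62011314-RA), -1.19 (AUR62011317-RA), -0.96 (AUR62011318-RA), -0.61 (AUR62011320-RA) and -1.19 (AUR62016740-RA). These are the levels of 43.7% to 65.4% of control, with adjusted p in limma from 0.362 to 0.797, and 4 of these copies had an unadjusted p under 0.05. With a normal distribution AUR62011314-RA, AUR62011317-RA and AUR62016740-RA were called, where 0.879% of all transcripts were. On day 1 the HR differences of the copies lay between -0.51 and 0.05, and 1 of them, AUR62011317-RA, had an unadjusted p under 0.05 in limma (standard error 0.21).

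The change of the HS effect from day 1 to day 11 was tested as a difference of the effects, each against the control of its day. RBG7 made up 5 of the 6 members called, all of them higher on day 11, where 12.5% of all transcripts were called in either direction and 4.3% were higher. The effect rose by log2 values of 1.52 (standard error 0.36, adjusted p = 0.0192) in AUR62011314-RA, 1.73 (0.39, adjusted p = 0.0135) in AUR62016740-RA and 3.02 (0.35, adjusted p = 5.9e-04) in AUR62011317-RA by limma. In AUR62011318-RA it rose by 3.39 (standard error 0.85) and in AUR62011320-RA by 4.19 (1.15), both called. The RS40 copy AUR62021238-RA was the remaining call (0.58, standard error 0.16). The same test for HRS gave -1.09 to 1.89 over the RBG7 copies, with standard errors of 0.66 to 1.18, and no call among them.

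Among the SR genes, the most common call on day 1 was a rise of 8 transcripts in both shoot-heated groups. They match SC35 (AT5G64200), a factor of the classical SR family that promotes spliceosome assembly, SCL30A (AT3G13570) of the plant-specific SC35-like (SCL) group, SR30 (AT1G09140), a plant relative of the mammalian factor SF2/ASF, SR45a (AT1G07350), an SR-like protein known in Arabidopsis for its induction by light and heat stress, and RS31 (AT3G61860) of the plant-specific RS group. All 8 were called higher in HS and again in HRS, which share control plants, and 9.52% of all transcripts tested in both were called higher in both. The ratios of heated to control level were between 1.75 and 3.46.

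SC35 copy AUR62013124-RA showed the largest of these differences in HS, with a mean level of 100 in control and 107 in HR, and 346 in HS and 304 in HRS (HS 3.46-fold, HRS 3.04-fold of control). The SC35 copy AUR62010131-RA stood at 525 in control and 483 in HR, and 1640 in HS and 1522 in HRS, 3.12-fold of control in HS (log2 1.64, standard error 0.14, adjusted p = 2.7e-04) and 2.90-fold in HRS (log2 1.54, standard error 0.10, adjusted p = 4.8e-05). For both copies the heated shoots formed the high groups and HR lay near control. SCL30A copy AUR62032735-RA had 1150 in control and 1073 in HR, and 3079 in HS and 3105 in HRS, and AUR62015293-RA had 459 in control and 387 in HR, and 1435 in HS and 1295 in HRS.

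SR30 was represented by a pair of copies, both called in HS and HRS. AUR62000755-RA had a level of 1924 in control and 1928 in HR, and 4407 in HS and 3786 in HRS, and AUR62005213-RA had 1277 in control and 1125 in HR, and 3008 in HS and 2408 in HRS. These were 2.29-fold and 2.36-fold of control in HS, and 1.97-fold and 1.89-fold in HRS. The only SR45a homolog, AUR62001700-RA, stood at 1656 in control and 1287 in HR, and 3276 in HS and 2896 in HRS. Its difference in HS (log2 0.98, standard error 0.27, adjusted p = 0.0326) was not called when levels were scaled to total counts (0.73, adjusted p = 0.0724). RS31 copy AUR62022727-RA had 169 in control and 162 in HR, and 386 in HS and 430 in HRS. It and SCL30A AUR62032735-RA had their highest level in HRS, and the remaining transcripts in HS.

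**Figure D3:**
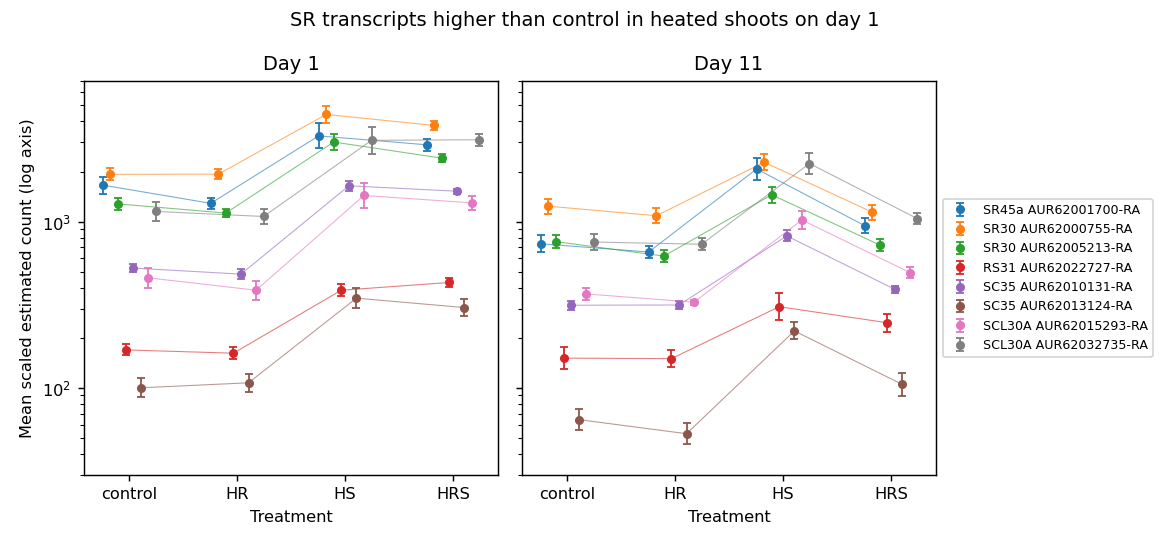
Mean scaled estimated count (log axis) by treatment on day 1 (left) and day 11 (right) for the 8 SR transcripts called higher than control in HS and HRS on day 1, with bars of 1 standard error of the mean of 3 plants from the residual SD of the fits. On day 1 HS and HRS both lie above control, and on day 11 HS does so while HRS lies nearer to control.

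On day 11, 5 of these 8 transcripts were again called higher than control in HS, and none in HRS (0.808% of all transcripts tested on both days were called higher in HS on both): SC35 AUR62010131-RA and AUR62013124-RA, SCL30A AUR62015293-RA and AUR62032735-RA, and SR45a. SC35 AUR62010131-RA had a level of 314 in control and 315 in HR, and 820 in HS and 392 in HRS, so HS stood at 2.61-fold of control (log2 1.38, standard error 0.18, adjusted p = 0.0212) and HRS at a log2 difference of 0.32 that was not called. SCL30A AUR62032735-RA had 753 in control and 730 in HR, and 2234 in HS and 1041 in HRS, and AUR62015293-RA had 367, 328, 1022 and 494 in the same order. SR45a stood at 735 in control and 656 in HR, and 2070 in HS and 946 in HRS. HS was the high group in each case, and HRS lay between it and control.

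The SR30 copies gave differences of 0.88 (AUR62000755-RA) and 0.94 (AUR62005213-RA) in HS on day 11, just short of a call (adjusted p = 0.0606 and 0.0517, limma), with levels of 1237 in control and 1084 in HR, and 2274 in HS and 1140 in HRS for the former. RS31 AUR62022727-RA had 151 in control and 150 in HR, and 308 in HS and 246 in HRS (HS adjusted p = 0.0911). In HRS on day 11 none of the 8 was called, their log2 differences ranging from -0.12 to 0.71. On that day and in HS, the leaf markers also stood apart from control: 9 of the 15 were called lower, where 2.86% of all transcripts were. Their median log2 difference was -2.08, against 1.04 in HS on day 1 and 0.05 in HRS on day 11. The summed group mean levels of all tested transcripts differed with them, and when scaled to these totals every HS difference on day 11 rises by 0.35 in log2. The part of these leaf marker changes in the values of the members was not tested.

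The direct comparison on day 11 gave lower levels in HRS than in HS for all 8, by log2 differences of -0.996 (SR30 AUR62000755-RA), -1.001 (SR30 AUR62005213-RA), -1.07 (both SC35 copies), -1.05 (SCL30A AUR62015293-RA), -1.10 (SCL30A AUR62032735-RA), -1.13 (SR45a) and -0.32 (RS31 AUR62022727-RA). With limma and the largest variance allowed, 0 members and 0% of all transcripts were called. At an unadjusted p under 0.05 there were 8 members, which are the 8 above without RS31 and with RBG7 AUR62011314-RA (-1.37, standard error 0.57). The share of all transcripts under that unadjusted threshold is not given, and the 0% above is not its match. The smallest adjusted p among members was 0.123, for SC35 AUR62010131-RA. The normal distribution called 5 members, where 3.87% of all transcripts were called, and equal spread in every group, chosen after the data were seen, called 7 of 38 with 11.8% of all transcripts. On day 1 the same transcripts differed between HRS and HS by -0.32 to 0.16.

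For HRS, 5 members had a smaller effect on day 11 than on day 1 (5.07% of all transcripts called in either direction and 3.59% lower), all of them from the rising set. These were SC35 AUR62010131-RA (-1.22, standard error 0.17, adjusted p = 0.00172), SR30 AUR62000755-RA (-1.09, 0.24, adjusted p = 0.0237), SR30 AUR62005213-RA (-0.98, 0.22, adjusted p = 0.0218), SCL30A AUR62015293-RA (-1.07, 0.25, adjusted p = 0.0292) and SCL30A AUR62032735-RA (-0.97, 0.23, adjusted p = 0.0322), all by limma. The HS effects of the same transcripts changed by -0.32 to 0.15 between the days, and none of these changes was called. Scaled to total counts, SC35 AUR62010131-RA kept its call and the SR30 and SCL30A copies lay just above the threshold, with adjusted p from 0.0504 to 0.0702.

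**Figure D4:**
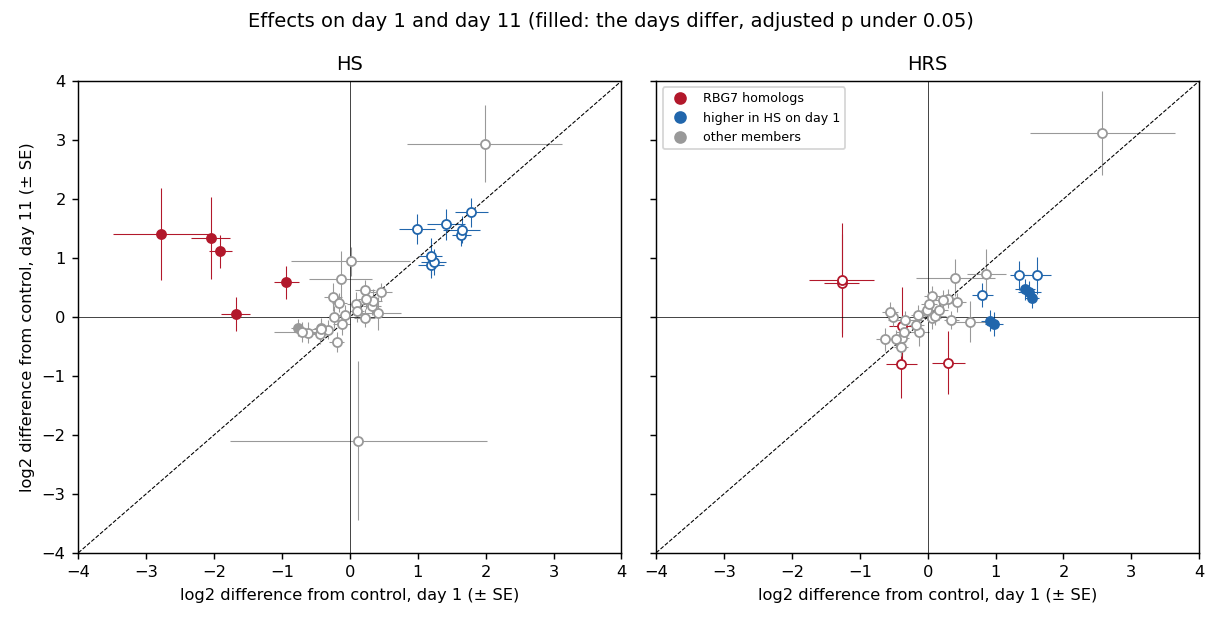
Log2 difference from control on day 1 (horizontal axis) against that on day 11 (vertical axis) for HS (left) and HRS (right), each point a member transcript with bars of 1 standard error, and the dashed line marking equal effects. Filled points are members whose effect differed between the days (limma, adjusted p under 0.05): 5 RBG7 homologs and 1 RS40 copy above the line in HS, and 5 SR transcripts below it in HRS.

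Quinoa copies with the same Arabidopsis match did not all behave alike, though differences between copies were not tested. Of the 6 SC35 transcripts, the rise on day 1 was called in AUR62010131-RA and AUR62013124-RA. The copy with the most counts, AUR62018901-RA, stood at 882 in control and 829 in HR, and 948 in HS and 880 in HRS, and its HS difference was 0.10, which turned to -0.15 when scaled to total counts (neither was called). AUR62027748-RA had 761 in control and 894 in HS (difference 0.23, or -0.02 scaled to total counts, not called by either). The SCL30A copy AUR62019180-RA went in the other direction from its partners, with 333 in control and 347 in HR, and 246 in HS and 214 in HRS, and was called lower in HRS (log2 -0.64, standard error 0.13). Its HS difference was called with the normal distribution (26.3% of all transcripts called), the filter on abundance (28.9%) and scaling to total counts (29.8%). RS31 copy AUR62004528-RA differed from control by 0.46 in HS, with 0.30 in HRS on day 1 and was not called.

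Among the SR genes, 4 transcripts were called lower in HS on day 1. The RS40 copies AUR62021238-RA (529 in control and 459 in HR, and 313 in HS and 403 in HRS) and AUR62016033-RA (416, 394, 271 and 300 in the same order) were called lower in both HS and HRS, at 59.1% and 65.1% of control in HS and 76.3% and 72.3% in HRS. The remaining RS40 copy, AUR62004294-RA, lay above control (324 in control, 379 in HS and 436 in HRS) and was not called by limma. Its HRS difference was called with the normal distribution and with the filter on abundance. Scaled to total counts, its HS difference of 0.22 turned to -0.03. RS40, like RS31, carries a pair of RNA recognition motifs. RSZ22 AUR62020291-RA, of the group with a zinc knuckle, fell from 894 in control to 663 in HS and 627 in HRS, and SCL30 AUR62012095-RA from 701 to 559 and 541. The other RSZ22 copies lay between -0.25 and 0.09 of control in HS and HRS on day 1 (log2) and were not called by limma. RS2Z32 AUR62025542-RA, of the group with a pair of zinc knuckles, was called by limma in HRS and not in HS (865 in control, 644 in HS, with 587 in HRS). Its HS difference was called with the normal distribution (26.3% of all transcripts called) and when scaled to total counts (29.8%). A small rise was called in HRS for SR34a AUR62006011-RA (603 in control and 768 in HRS, adjusted p = 0.0463), which was lost when scaled to total counts. Of these transcripts none was called on day 11 by limma without that scaling. Scaled to total counts, RS40 AUR62004294-RA was called higher in HS on that day (16.6% of all transcripts called).

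**Figure D5:**
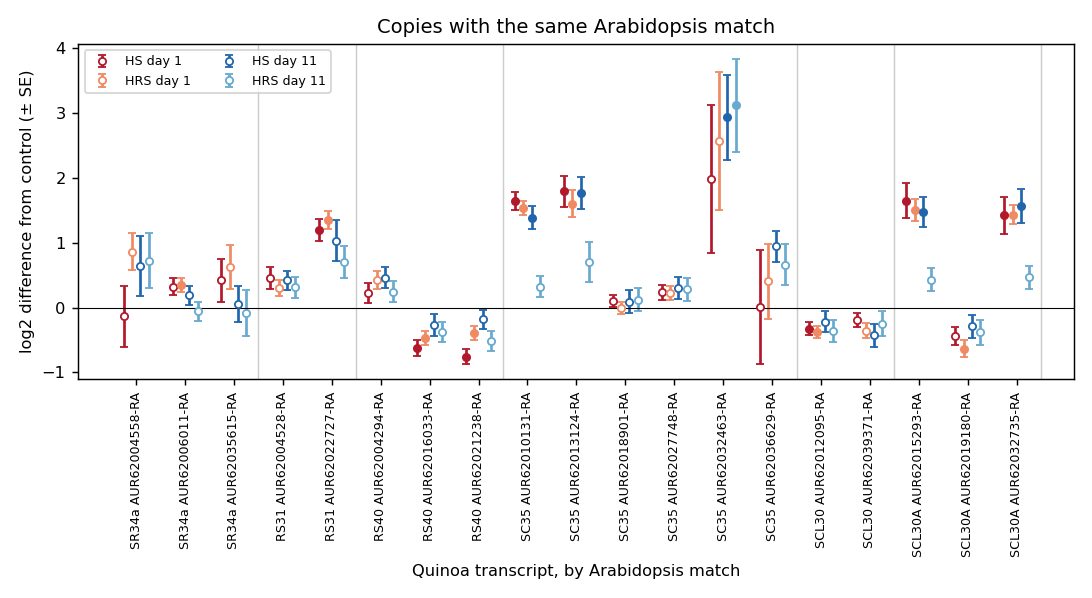
Log2 difference from control (vertical axis, bars of 1 standard error) of every copy matched to SR34a, RS31, RS40, SC35, SCL30 and SCL30A (horizontal axis) in HS and HRS on day 1 and day 11, with filled points where limma's adjusted p was under 0.05. Of the SC35 copies AUR62010131-RA and AUR62013124-RA were called higher on day 1, and of the SCL30A copies AUR62019180-RA lies below zero while the other two lie above.

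Several members were called in no comparison with control by limma without scaling to total counts. SR34, the closest plant relative of SF2/ASF, had copies AUR62008637-RA and AUR62033136-RA within -0.23 to 0.14 of control in the 6 comparisons, and SR45, an SR-like protein that interacts with U1 and U2AF components in Arabidopsis, had copies AUR62039165-RA and AUR62043127-RA within -0.31 to 0.24. The level of the former SR34 copy was 798 in control and 769 in HR, and 756 in HS and 723 in HRS on day 1. SR34b AUR62022674-RA lay between -0.15 and 0.34. Scaled to total counts, SR34 AUR62033136-RA was called lower in HS (29.8% of all transcripts called) and HRS (27.6%) on day 1. With the same scaling, SR45 AUR62039165-RA was called lower in HS on day 1 and higher in HS on day 11 (16.6%). A missed threshold does not show that these levels were unchanged.

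Transcripts with few counts had large errors. SC35 AUR62032463-RA had a mean level of 2.74 in control and 7.74 in HR, and 10.8 in HS and 16.3 in HRS on day 1, while on day 11 the same groups had 3.09, 6.94, 23.6 and 26.8. It was called on day 11 at a log2 difference of 2.94 in HS (standard error 0.66, adjusted p = 0.0481) and of 3.12 in HRS (0.71, adjusted p = 0.0453), where it was the 1 member called. It falls outside a filter on transcripts above the lower quartile of abundance, which removes both calls. RS2Z33 AUR62043533-RA varied between plants by a log2 SD of 1.12 to 3.26 and was not tested in HRS on day 11, and the other RS2Z33 copy, AUR62043802-RA, stood at 687 in control and 422 in HS on day 1 without a call.

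Other parts of the splicing machinery were read from lists chosen by function. Of 81 transcripts matched to core spliceosome loci, 78 were tested in HS on day 1 and 14 were called, 9 higher and 5 lower, and 16 of 77 in HRS. On day 11, 6 of 77 were called in HS, all higher, and 1 in HRS. Of all transcripts, 22.1% were called in HS and 22.7% in HRS on day 1, so the shares of this list on that day were not above those of all transcripts. On day 11 4.95% of all transcripts were called in HS (2.09% higher) and 5.55% in HRS. The small U2AF subunit recognises the AG at the end of the intron, and its homologs U2AF35B AUR62023944-RA and AUR62038295-RA were called higher on day 1 in HS (1.77 and 1.70) and HRS (1.71 and 1.75) and on day 11 in HS (1.40 and 1.01), with 0.31 and 0.17 in HRS, not called. Their HRS effect fell between the days by 1.40 and 1.59, both called. These copies were picked after their values were seen, and other transcripts matched to the small subunit are not described here. The large-subunit homolog U2AF65A AUR62014796-RA was lower on day 1, by -1.16 in HS and -1.13 in HRS, and both calls were gone on day 11. Copies of PRP40A, a U1-associated protein, were called on day 11 in HS at 0.93 (AUR62027023-RA) and 0.79 (AUR62030865-RA).

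Of all transcripts, 22.1% were called in HS on day 1 (10% lower) and 22.7% in HRS on day 1. On day 11 the shares were 4.95% in HS and 5.55% in HRS. Among 10 tested transcripts of other glycine-rich RNA-binding proteins, 3 were called lower in HS on day 1 and 0 in HRS by limma (2 at an unadjusted p under 0.05). They were RBG2 AUR62018559-RA, matched to a mitochondrial family member (-1.39, standard error 0.20), and RZ1A AUR62013535-RA (-0.70) and AUR62026752-RA (-0.46). All of them, with RBG3 AUR62008532-RA, were called for a higher HS effect on day 11 than on day 1, by 2.24, 0.93, 0.93 and 0.82. In that comparison 4.3% of all transcripts were called higher. SR protein kinases, which phosphorylate the serine-rich domain, gave 1 call of 14 in HS, with 2 in HRS on day 1 and 0 on day 11 in both (1 and 0 at an unadjusted p under 0.05, limma). Polypyrimidine tract-binding proteins, which compete with U2AF at the polypyrimidine tract, gave 0 calls of 9 in HS (4 at an unadjusted p under 0.05, limma) and 2 in HRS on day 1.

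Transcripts with a pattern like that of a member were ranked by the Euclidean distance of their 6 log2 differences, over 14358 transcripts of above-median count, as a description. The nearest to RBG7 AUR62011314-RA outside the members were AUR62026193-RA, matched to At2g05540 (distance 0.68), AUR62023140-RA, matched to the organelle RNA polymerase RPOT2 (0.68), and AUR62026286-RA, matched to At1g27150 (0.72). The nearest member was RSZ22 AUR62014008-RA, at rank 84. Of the other RBG7 copies, AUR62016740-RA ranked 183, AUR62011317-RA 2619 and AUR62011318-RA 11312, and AUR62011320-RA was below the count limit and was not ranked. For SC35 AUR62010131-RA, a reference chosen after its values were seen, the nearest transcripts were SCL30A AUR62015293-RA (0.26), U2AF35B AUR62023944-RA (0.31) and SCL30A AUR62032735-RA (0.34), followed outside the members by AUR62006743-RA, matched to TPR5 (0.41), and AUR62014991-RA, matched to At3g13224 (0.42).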

How the data were processed

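Leaf RNA of 24 plants in 8 groups, assigned from their labels, was sequenced as strand-specific paired ends. The authors used trimmomatic 0.38 for trimming, kallisto 0.44.0 for estimated counts on the quinoa v1.0 transcriptome, and fitted each treatment against the control of its day with sleuth 0.30.0. The authors' deposited table gives effects, standard errors and mean abundance on the natural log scale, with variance components (other units) and p and q columns of the authors' own tests, which were not used. Columns with values of single plants number 0, so sleuth could not be rerun, and the differences reported are the effects of the authors' fits while the tests of them were computed here. Effects and residual variances (4 residual degrees of freedom, 8 between days) were therefore tested with limma 3.58.1 (R 4.3.3, eBayes with an abundance trend), with Benjamini-Hochberg adjustment and a threshold of 0.05, and the procedure was tested on simulated data. Tables and plots used Python 3.11.15, pandas 2.3.3, numpy 2.4.6 and matplotlib 3.10.9. The p-values measure the spread between 3 separate plants per group.

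The members and gene lists were chosen with earlier results of these data known. Named were all copies of RBG7, SR45a and SR30, the copy with the most counts of each other locus, members called in both HS and HRS on day 1 with a log2 difference of at least 1, those called on day 11, and those called between days. Copies described beyond this rule were chosen after their values were seen. Alternatives were a normal distribution with the deposited standard error, unmoderated variance, a threshold of 0.01, a filter at the lower quartile (25%) of abundance, scaling to total counts and, added after the data were seen, equal spread in every group. Sequences and chromosomal positions were not used here.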

Additional observations from a re-analysis of the deposited data

Results flagged for a closer look

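Effects of the same treatment differed between day 1 and day 11 in 11 members (limma, adjusted p under 0.05, Benjamini-Hochberg over all transcripts of the comparison). Of these, 6 were called for HS, where 12.5% of all transcripts were called, and 5 for HRS, where 5.07% were. For HS the log2 difference from control was higher on day 11 by 1.52 in RBG7 AUR62011314-RA, 3.02 in AUR62011317-RA, 3.39 in AUR62011318-RA, 4.19 in AUR62011320-RA and 1.73 in AUR62016740-RA, and by 0.58 in RS40 AUR62021238-RA. For HRS it was lower on day 11, by -1.09 in SR30 AUR62000755-RA and -0.98 in SR30 AUR62005213-RA, -1.22 in SC35 AUR62010131-RA, and -1.07 in SCL30A AUR62015293-RA and -0.97 in AUR62032735-RA. These are differences of effects measured on separate plants.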

How the results depend on the processing

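No called difference of a member named by the rule reversed under any alternative. Scaling to total counts, which lowers every log2 difference by 0.25 for HS and 0.19 for HRS on day 1 and raises it by 0.35 in HS on day 11, changed the sign of 37 differences of members from control, none of them called under either scaling. It called 22 members in HS on day 1 (7 higher, 15 lower, against 8 and 9), where the share of all transcripts called went from 22.1% to 29.8%, and 17 in HRS (8 higher, 9 lower, against 9 and 7), where it went from 22.7% to 27.6%. It called 15 instead of 6 in HS on day 11 (all transcripts 16.6% instead of 4.95%), 20 instead of 6 for the change of HS between days (33.9% instead of 12.5%), and 3 (2 higher, 1 lower) instead of 5 lower for that of HRS (5.11% instead of 5.07%). The normal distribution called 3 members in HR on day 11 (0.879% of all transcripts), 10 in HS on day 11 (13.6%), 1 for HRS against HS (0.0534%) and 1 for the interaction (0.0101%) on day 1, and 5 for HRS against HS on day 11 (3.87%). Equal spread in every group, added after the data were seen, called 1 and 7 for HRS against HS on days 1 and 11 (0.0434% and 11.8%). The unmoderated variance called 11 members in HS on day 1 (12.2%), 0 on day 11 in either shoot-heated group (where it called 2 and 24 of all transcripts), 3 for the change of HS (9.22%) and 1 for that of HRS (3.21%). A threshold of 0.01 left on day 1 11 members for HS (10.3%) and 10 for HRS (10.7%), 0 on day 11 (0.0716% and 0.0627%), and 1 for each change between days (4.65% and 1.63%). Above the lower quartile of abundance 0 were called in HRS on day 11 (7%). Of the values of named members, 24 lost their call with the unmoderated variance, 24 at 0.01, 6 when scaled to totals and 1 with the normal distribution. No paired analysis was possible because the table holds no values of single plants, and for the same reason leaving out each replicate was not run.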

Other observations

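Leaf marker transcripts had median log2 differences of 0.55 in HR and 0.68 in HRS on day 1 and 0.59 in HR on day 11, beside the values given for HS. Their HS effect was lower on day 11 than on day 1 in all 15, 13 of them called (limma), where 8.24% of all transcripts were called lower. The median change of the leaf markers was -3.20, while RBG7 copies changed upward in the same comparison. Over all transcripts, 216 carried the same 6 effects as another transcript, and 0 of the members did.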
